A study of Mus musculus with 3 samples.

Results

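The genes described here are 10 genes of extracellular proteolysis. They comprise 6 matrix metalloproteinases (Mmp8, Mmp9, Mmp12, Mmp13, Mmp14 and Mmp19), the disintegrin metalloproteinase Adam8 and 3 tissue inhibitors of metalloproteinases (Timp1, Timp2 and Timp3). They were taken by gene symbol from the 55536 annotated genes of the deposited tables. All 10 members were found. The RNA came from the cytosolic fraction of bone-marrow-derived macrophages, primary cells of C57BL/6J mice, and ribosomal RNA had been depleted from it. Every library carried the same treatment. The cells received Lipid A, the membrane anchor of bacterial lipopolysaccharide and a ligand of TLR4, at 100 ng/ml for 12 hours, were washed out for 12 hours, and were exposed again to Lipid A at 100 ng/ml for 10 minutes. The 3 libraries form a single group of labelled biological replicates 1, 2 and 3 with a shared donor identifier, so levels are described and no condition is set against another. Age and sex were not collected, and no untreated or singly treated cells were analysed here.

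Matrix metalloproteinases are zinc-dependent enzymes that cut collagens, elastin, basement membrane proteins and many cell-surface proteins. Most are made as inactive precursors whose prodomain must be removed, some by furin inside the cell and others by plasmin or another metalloproteinase outside it, and TIMP proteins then bind the active site in a 1:1 complex. Macrophages use these enzymes to move through matrix and to release surface-bound cytokines. The mRNA levels given here measure neither protein nor enzyme activity.

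The libraries held 32108408, 53165872 and 57117456 expected counts in replicates 1, 2 and 3. All 10 macrophage markers examined stood at 10 or more TPM (transcripts scaled to a fixed library total, and for transcript length) in every library, and their summed level was 5427, 4520 and 4961 TPM. Nuclear-encoded protein-coding genes made up 34.3%, 27.8% and 27.8% of TPM. Replicate 1 stood apart in nuclear RNA. Malat1, a long noncoding RNA retained in the nucleus, was at 1333, 118 and 152 TPM in replicates 1, 2 and 3, so results in which replicate 1 departs are given below with their values in the other libraries. P-values below measure only the spread between these 3 libraries, which may be technical. In bulk RNA, fewer cells that express a gene and less of its RNA per cell cannot be told apart.

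A few members carried most of the family's mRNA. Mmp14, Timp2 and Adam8 together held 89.3%, 90.9% and 89.9% of the summed TPM of the 10 members in replicates 1, 2 and 3 (90% ± 0.82, SD, n = 3), and the summed level itself was 224, 187 and 166 TPM. Of the 10 members, 7 reached 1 TPM in every library, beside 41.4% of the 22028 protein-coding genes, and Mmp14, Timp2 and Adam8 were the 3 above 10 TPM in every library. The median of the members' mean levels was 4.49 TPM, against 0.163 TPM over all protein-coding genes. No test was made of this difference, and the members were chosen with earlier results of these data known. The comparison therefore does not describe metalloproteinase genes at large. The median over the 17 other Mmp genes was 0.00667 TPM.

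**Figure D1:**
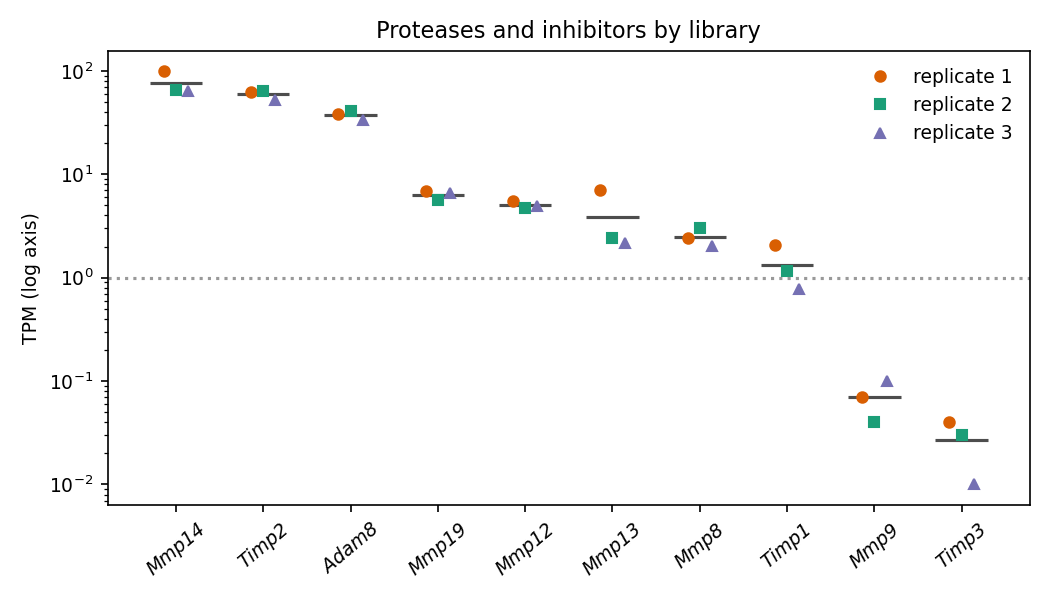
TPM of each member (log axis) in replicates 1, 2 and 3, with a bar at the mean of the 3 libraries and a dotted line at 1 TPM. Mmp14, Timp2 and Adam8 sit above 30 TPM in every library, Mmp19, Mmp12, Mmp13 and Mmp8 between 2 and 8 TPM, Timp1 on both sides of 1 TPM, and Mmp9 and Timp3 at or below 0.1 TPM.

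Mmp14 (ENSMUSG00000000957.11, mm10 chr14:54431612-54445364, plus strand) encodes the membrane-anchored collagenase MT1-MMP, which is activated inside the cell by furin. Its level was 99.0, 65.0 and 63.4 TPM in replicates 1, 2 and 3, from 10535, 14286 and 15408 expected counts. In this table it was the highest level of the family in every library, and its mean of 75.8 ± 20.1 TPM (SD, n = 3) stood at the 97.2 percentile of protein-coding genes. Replicate 1 was the high library, and the other two lay close together. Over nuclear-encoded protein-coding genes alone the same order held, at 288, 234 and 228 TPM. The table made directly from the reads listed Mmp14 lower, at 70.4, 23.4 and 19.2 TPM, with replicate 1 again high. In that table, where nuclear-encoded protein-coding genes made up 24.3%, 10.1% and 8.15% of TPM, 9 of the 10 members had a lower mean than in the first, and Timp3 was the exception.

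Adam8 (ENSMUSG00000025473.16, chr7:139978932-139992562, minus strand) encodes a leukocyte membrane protease that sheds surface proteins and removes its own prodomain. It was at 38.8, 41.4 and 33.3 TPM in replicates 1, 2 and 3 (37.8 ± 4.14, SD, n = 3), from 5049, 11123 and 9875 expected counts. The libraries lay within 1.24-fold of each other, and each was below Timp2 in the same library.

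The secreted proteases of the middle range stood well below these. Mmp19 (ENSMUSG00000025355.7, chr10:128790910-128800824, plus strand), a secreted enzyme that cuts basement membrane components, was at 6.88, 5.6 and 6.61 TPM (6.36 ± 0.675, SD, n = 3). Mmp12 (ENSMUSG00000049723.14, chr9:7344381-7369499, plus strand), the macrophage elastase, was at 5.55, 4.74 and 4.99 TPM (5.09 ± 0.415, SD, n = 3). Their ranges narrowly did not overlap, and Mmp19 was above Mmp12 in all 3 libraries. In the table made directly from the reads the ranges did overlap. There Mmp19 was at 5.36, 2.14 and 2.11 TPM and Mmp12 at 3.87, 1.78 and 1.56 TPM, with Mmp19 again higher in each library. For Mmp19 the value carries an annotation limit: its exons share 789 bases with exons of Tmem198b on the opposite strand, and the sources used here do not give the strand setting of the counting. Tmem198b itself was listed at 2.23, 2.39 and 2.42 TPM, and the estimation error of the Mmp19 count was 9.02, 12.6 and 15.2 counts (posterior SD) on totals of 915, 1516 and 1971.

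Mmp13 (ENSMUSG00000050578.10, chr9:7272514-7283331, plus strand), a collagenase of fibrillar collagen, was at 7.03 TPM in replicate 1 and at 2.42 and 2.19 TPM in replicates 2 and 3 (3.88 ± 2.73, SD, n = 3). Its count was 789 in replicate 1, the smallest library, and 555 and 554 in the larger ones. Mmp8 (ENSMUSG00000005800.3, chr9:7558456-7568485, plus strand), the collagenase best known from neutrophil granules, was at 2.42, 3.00 and 2.02 TPM (2.48 ± 0.493, SD, n = 3). Mmp13 overlapped both of its neighbours in the order of levels: it was above Mmp12 in replicate 1 only, and above Mmp8 in replicates 1 and 3.

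Mmp9 (ENSMUSG00000017737.2, chr2:164940780-164955850, plus strand), gelatinase B, was near the bottom of the family. It had 9, 11 and 29 expected counts and 0.07, 0.04 and 0.10 TPM in replicates 1, 2 and 3, and a mean level 19.1-fold below that of its neighbour in the order, Timp1. All 3 libraries of Mmp9 lay below all 3 of Timp1.

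Of the inhibitors, Timp2 alone was abundant. Timp2 (ENSMUSG00000017466.9, chr11:118301069-118355740, minus strand), a secreted inhibitor that also bridges MT1-MMP and the Mmp2 precursor at the cell surface, was at 62.6, 63.5 and 52.5 TPM (59.5 ± 6.08, SD, n = 3), from 7267, 18716 and 18381 expected counts. Timp1 (ENSMUSG00000001131.11, chrX:20870166-20874735, plus strand), an inhibitor that also binds the Mmp9 precursor and inhibits MT1-MMP only weakly, was at 2.08, 1.17 and 0.77 TPM (1.34 ± 0.671, SD, n = 3) from 59, 68 and 49 counts. Timp3 (ENSMUSG00000020044.13, chr10:86300372-86349506, plus strand), which is held in the matrix and also inhibits Adam17, was at 0.04, 0.03 and 0.01 TPM from 4, 12 and 5 counts. The table made directly from the reads listed Timp3 at 0.743, 0.0182 and 0.00892 TPM, so its level in replicate 1 depends on the table. In that library Timp3-203, a short transcript without an annotated coding sequence, held 95.2% of the direct TPM. Timp1 lies whole inside Syn1 on the opposite strand with no shared exon bases, and Syn1 was listed at 3.56, 3.47 and 3.8 TPM. Timp3 shares 1733 exonic bases with Syn3 on the opposite strand, listed at 0.07, 0.03 and 0.01 TPM. Other annotated overlaps were with genes of low level or of few shared bases: Gm16201 shares 46 exonic bases with Adam8 (0.34, 0.26 and 0.29 TPM), Mmp1b shares 157 with Mmp12 and had 0 counts, Mir7062 lies in Adam8 on its strand with no shared exonic base and had 0 counts, Gm47093 shares 212 with Mmp19 (0 to 2.02 counts), and Cep295nl, on the strand of Timp2, shares none with it (0.72, 0.22 and 0.19 TPM). Because the strand setting is not given, reads of these pairs cannot be assigned with certainty, and the low Timp1 and Timp3 values are uncertain to that extent.

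Summed over the 3 inhibitors and the 7 proteases, inhibitor mRNA was 64.7, 64.7 and 53.3 TPM against 160, 122 and 113 TPM of protease mRNA in replicates 1, 2 and 3. The ratio of inhibitors to proteases was 0.405, 0.529 and 0.473 (0.469 ± 0.0623, SD, n = 3). Proteases thus exceeded inhibitors in each library at the mRNA level, and the ratio was lowest in replicate 1. Proteases were above inhibitors in every library on the other scales too, with other values. From the table made directly from the reads the ratio was 0.490, 0.749 and 0.648, and from expected counts 0.409, 0.655 and 0.635. With Adam8 left out of the proteases, the ratio by TPM was 0.535, 0.801 and 0.672, also below equality in every library.

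The pair Mmp14 and Timp2, whose proteins form a complex on the cell surface, was less settled. Mmp14 over Timp2 was 1.58, 1.02 and 1.21 on the TPM scale in replicates 1, 2 and 3, and their TPM ranges overlapped. On expected counts, which are not scaled for length, the ratio was 1.45, 0.763 and 0.838, and in the table made directly from the reads it was 1.34, 0.727 and 0.886. Which of the pair is more abundant in replicates 2 and 3 therefore depends on the table and the scale, and only replicate 1 gave Mmp14 above Timp2 on all 3. Among the next steps of the order, Timp2 over Adam8 (1.57-fold by means) and Adam8 over Mmp19 (5.94-fold) had no overlap of ranges in the alignment-based table. In the table made directly from the reads, Timp2 (52.4, 32.2 and 21.6 TPM) and Adam8 (25.5, 14.3 and 9.55 TPM) did overlap, with Timp2 higher in each library. Mmp8 over Timp1 (1.85-fold) and Mmp9 over Timp3 (2.62-fold, on few counts) overlapped in the alignment-based table. The last step was not stable: in the table made directly from the reads Mmp9 was at 0.0601, 0.0147 and 0.0277 TPM, below Timp3 in replicates 1 and 2.

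Of the 6 listed metalloproteinases, 3 sit in a single cluster of 10 metalloproteinase genes that spans 427072 bases of chromosome 9 (mm10, chr9:7272514-7699585). Its order is Mmp13, Mmp12, Mmp1b, Mmp3, Mmp1a, Mmp10, Mmp8, Mmp27, Mmp20 and Mmp7, and the members in it are Mmp13, Mmp12 and Mmp8. Mmp27, which is no member and neighbours Mmp8, was at 4.34, 3.85 and 3.00 TPM, above Mmp8 in every library. The genes between Mmp12 and Mmp8 were not, or barely, detected. Mmp1b, Mmp3 (stromelysin-1) and Mmp1a (annotated as a polymorphic pseudogene) had 0 counts in every library, and Mmp10 (stromelysin-2) had 0, 0 and 1 count. Mmp20 and Mmp7 at the far end also had 0 counts. For these 5 genes without a count, 3 counts would correspond to at most 0.0213 TPM for Mmp20 and 0.0786 TPM for Mmp7, with the others between, which covers counting error only. Along the cluster, the expressed pair Mmp13 and Mmp12 was thus followed by 4 genes with at most 1 count, then by the expressed pair Mmp8 and Mmp27, and then by 2 genes without a count.

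**Figure D2:**
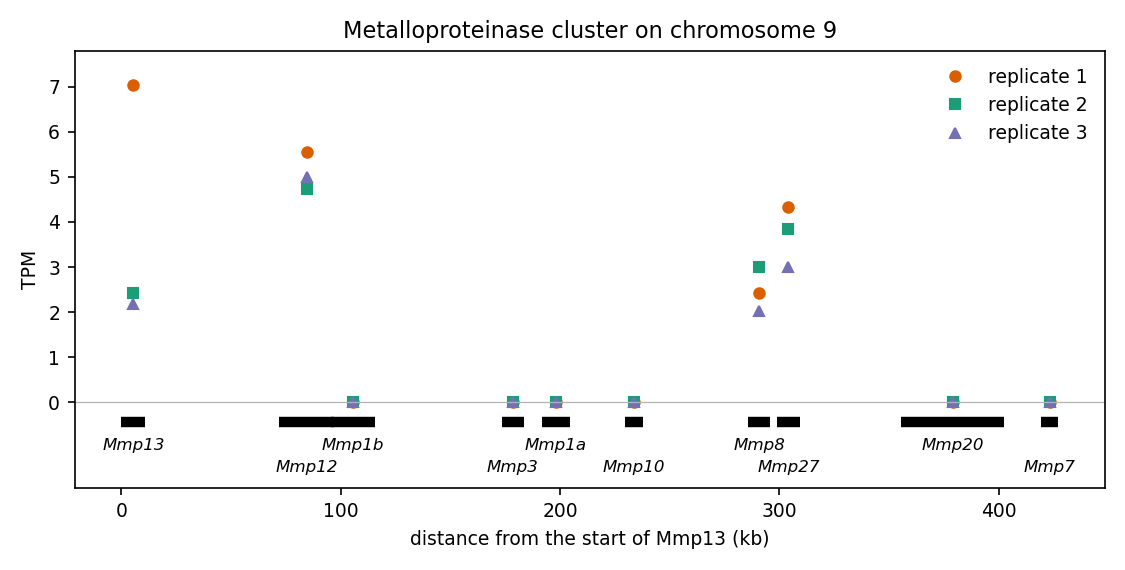
TPM of the 10 metalloproteinase genes of the chromosome 9 cluster in replicates 1, 2 and 3, plotted at each gene's middle, with black bars for the extent of each gene and distance from the start of Mmp13 in kb. Mmp13, Mmp12, Mmp8 and Mmp27 lie at 2 TPM or more in every library, and the other 6 genes lie at or within 0.01 TPM of 0.

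Promoter sequences are shown for genes of the cluster that differ in level, and after them for the 3 abundant members, because the cluster genes and the abundant genes differ in 2 short motifs. The sequences are the 100 bases before the start site in RefSeq (GRCm38.p6), read 5′ to 3′ on the gene's strand, with capitals for TGAGTCA or its reverse complement TGACTCA (the consensus bound by AP-1 factors) and for GGGCGG or its reverse complement CCGCCC (the GC box bound by Sp1-like factors).
Mmp13 (chr9:7272414-7272513, plus strand): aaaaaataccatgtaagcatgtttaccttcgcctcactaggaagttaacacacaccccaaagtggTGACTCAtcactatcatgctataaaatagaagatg
Mmp12, downstream start (chr9:7347274-7347373, plus strand): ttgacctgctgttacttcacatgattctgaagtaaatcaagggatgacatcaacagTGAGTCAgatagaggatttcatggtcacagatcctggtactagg
Mmp3 (chr9:7445722-7445821, plus strand): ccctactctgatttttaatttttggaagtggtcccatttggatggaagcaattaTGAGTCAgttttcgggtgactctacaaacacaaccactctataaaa
Mmp10 (chr9:7502242-7502341, plus strand): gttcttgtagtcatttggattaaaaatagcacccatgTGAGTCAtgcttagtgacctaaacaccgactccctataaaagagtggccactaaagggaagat
Mmp8 (chr9:7558329-7558428, plus strand): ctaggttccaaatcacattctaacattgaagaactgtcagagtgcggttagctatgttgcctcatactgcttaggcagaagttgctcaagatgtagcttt
Mmp14 (chr14:54431498-54431597, plus strand): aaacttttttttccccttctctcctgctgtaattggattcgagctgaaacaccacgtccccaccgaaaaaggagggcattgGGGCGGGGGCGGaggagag
Timp2 (chr11:118355412-118355511, minus strand): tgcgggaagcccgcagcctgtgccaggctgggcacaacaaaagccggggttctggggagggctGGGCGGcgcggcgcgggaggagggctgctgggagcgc
Adam8 (chr7:139992563-139992662, minus strand): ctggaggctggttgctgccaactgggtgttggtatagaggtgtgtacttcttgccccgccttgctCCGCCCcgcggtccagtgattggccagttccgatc

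TGAGTCA, searched on both strands from 250 bases before to 50 bases after the start, was found at 7 of the 10 cluster genes and in 5.2% of all 32851 mouse promoters in the table. The 7 were Mmp13 and Mmp12 among the expressed genes and Mmp1b, Mmp3, Mmp1a, Mmp10 and Mmp7 among those at 0 or 1 count, so the letters were shared by expressed neighbours and neighbours without detected RNA. They were not in the windows of Mmp8 and Mmp27, which were expressed, nor of Mmp20, which was not. In Mmp12 the match stood at position -44 of the downstream start and was not in the window of the upstream start, 2977 bases away. The downstream start is that of the transcript Mmp12-201, which was listed at 0 in all 3 libraries. The upstream start is that of Mmp12-203, which held 22.5%, 35.7% and 25.5% of the gene's TPM. Mmp12-204, at 49.0%, 35.7% and 44.8%, starts at position 7347406, inside the window of the downstream start. GGGCGG was found at 5 members (Mmp14, Timp2, Adam8, Timp1 and Timp3), at no cluster gene, and in 35.7% of all promoters. It was in the windows of the 3 most abundant members, and also in that of Timp3, the member with the lowest mean TPM in the alignment-based table. Mmp14 held 2 adjoining copies, at positions -19 and -13. Of the 10 members, 8 had an entry in the promoter table. A match of letters is a description of sequence, and binding was not measured here.

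Little RNA of the rest of the metalloproteinase family was detected. Of the 17 other Mmp genes, Mmp27 alone reached 1 TPM in every library, 6 had 0 counts in all 3, and the median of their mean levels was 0.00667 TPM. Mmp25, a membrane-anchored enzyme of leukocytes, was at 1.39, 0.61 and 0.50 TPM in replicates 1, 2 and 3. Mmp2, the gelatinase whose precursor is activated by the MT1-MMP and Timp2 complex, was at 0.24, 0.26 and 0.28 TPM (0.260 ± 0.02, SD, n = 3), far below both proteins' mRNAs. Among 5 other inhibitors none reached 1 TPM in every library. The membrane-anchored inhibitor Reck was at 0.04, 0.08 and 0.05 TPM, Timp4 had a single count in 1 library, and the plasma inhibitor A2m had 0 counts, where 3 counts would be at most 0.0283 TPM.

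Proteases and partners around the family were detected in part. Of 12 other ADAM and ADAMTS genes 4 reached 1 TPM in every library, a share below the 41.4% of all protein-coding genes, the highest being Adam15 at 56.1 ± 1.81 TPM, Adam9 at 31.4 ± 3.65 and Adam17, the sheddase of TNF, at 31.1 ± 4.71 (SD, n = 3 each). Adam8 thus lay between Adam15 and Adam9 by its mean. Of 11 genes for activation, surface docking and clearance of metalloproteinases, 7 reached that level. Cd63, a tetraspanin that binds Timp1, was at 262 ± 23.9 TPM, Lrp1, an endocytic receptor that clears several metalloproteinases and TIMPs, at 92.2 ± 5.17, and Bsg, a surface glycoprotein known as an inducer of metalloproteinases, at 75.4 ± 3.17 (SD, n = 3 each). Furin, named after its values were seen because it activates MT1-MMP, was at 21.1, 17.8 and 15.8 TPM. Plg, the gene for plasminogen, had 0 counts, where 3 counts would be at most 0.0343 TPM.

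Matrix genes and lysosomal cathepsins spanned a wide range of levels. Of 14 genes for matrix substrates, 2 reached 1 TPM in every library: Spp1 (osteopontin), at 426, 588 and 438 TPM, and the laminin chain gene Lamc1, at 2.28, 3.19 and 2.79 TPM. Vcan (versican) was at 1.76, 0.70 and 0.72 TPM, and Eln (elastin, a substrate of Mmp12) had 0 counts, where 3 counts would be at most 0.0260 TPM. Of 4 cysteine cathepsins, which degrade matrix in acid compartments, Ctsb was at 2295 ± 279 TPM and Ctss at 1354 ± 249 TPM (SD, n = 3 each), each above the summed level of all 10 members in every library, and Ctsk was at 0.99, 0.86 and 0.55 TPM.

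Because Mmp8 and Mmp9 are also granule products of neutrophils, and several members are made by stroma or osteoclasts, markers of those cells were read beside them. Of 12 neutrophil and precursor markers, 9 had a mean under 1 TPM. The defining genes Ly6g and Retnlg had 0 counts in every library, where 3 counts would be at most 0.161 and 0.184 TPM. Both values exceed the Mmp9 level of 0.07, 0.04 and 0.10 TPM. The summed level of the 12 was 58.1, 35.3 and 42.4 TPM in replicates 1, 2 and 3. Csf3r, which macrophages may also express, made up most of it at 49.8, 27.5 and 30.3 TPM, and without it the sum was 8.34, 7.8 and 12.1 TPM. Replicate 1 was highest for 3 of the 12 markers, Csf3r among them, and replicate 2 for 1. Prtn3, Camp and Mpo were highest in replicate 3 on at most 16 counts a library. In all, replicate 3 was highest for 5 of the 12, S100a8 (2.64, 2.29 and 4.18 TPM) and S100a9 (4.75, 4.75 and 6.85 TPM) among them, and was also highest for Mmp9. Mmp8 did not share that order and was lowest in replicate 3. The part of these cells in the Mmp9 value was not tested. The 8 stromal markers, collagen and platelet-derived growth factor receptor genes among them, summed to 0.17, 0.04 and 0.11 TPM. The 7 osteoclast markers summed to 17.5, 16.0 and 17.2 TPM. Of these, 5 had a mean under 1 TPM, Calcr with 0 counts among them. Acp5 at 11.2 ± 2.39 TPM and Atp6v0d2 at 4.81 ± 1.55 TPM (SD, n = 3 each) were the highest and made up most of the sum.

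How far the members differed between libraries of the same treatment was tested on expected counts. A chi-square test per gene asked whether the 3 counts departed from a single rate, with Benjamini-Hochberg adjustment over 12515 genes, and called 71.4% of them. Of the 9 members tested, 8 were called, a share to be read against that background. Mmp12 was not called (369, 608 and 732 counts, adjusted p = 0.149 by the chi-square test), which does not show that it did not vary, and Timp3 had too few counts to be tested. The edgeR biological coefficient of variation had a median of 0.187 over the 9 members and of 0.172 over all genes tested. It was between 0.138 (Mmp19) and 0.225 (Mmp8) for 6 members, and higher for Mmp13 (0.372), Timp1 (0.397) and Mmp9 (0.401).

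The direction of the departures differed between members. On the log2 scale of CPM (counts scaled to a fixed library total), Mmp13 in replicate 1 was 1.34 above the mean of the other 2 libraries (adjusted p = 8.74e-94 by the chi-square test over all 3), at the 96.9 percentile of all genes in that library. Timp1 in replicate 1 was 0.84 above the others, and Mmp14 was 0.34 above (adjusted p = 0.000245 and 2.49e-96 by the chi-square test). Without replicate 1, whose Malat1 level is given above, none of these 3 was called, and 5 members were called (Adam8, Mmp19, Mmp8, Mmp9 and Timp2) beside 5126 of 12697 genes. The part of nuclear RNA in the 3 genes' departures was not tested. Timp2 went the other way and was 0.51 below the others in replicate 1 (adjusted p = 2.59e-185 by the chi-square test), with a call also without replicate 1. Adam8 and Mmp8 were highest in replicate 2, by 0.32 and 0.54.

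Mmp9 in replicate 3 was 0.93 above the others, at the 99.5 percentile of all genes, and was the only member outside the central 95% of genes in any library (adjusted p = 0.0341 by the chi-square test). That call rests on few counts and was not made without replicate 2, and without replicate 3 Mmp9 had too few counts to be tested. In the same library S100a8 was 0.82 and S100a9 0.60 above the others. Of the other neutrophil markers tested, Ngp departed by 0.144 and was not called, and Csf3r departed by -0.165. Mmp8 was not called without replicate 2 (6 members called, beside 7278 of 12498 genes), nor Mmp19 without replicate 3 (6 of 8 members tested, beside 7667 of 12462 genes), and Adam8 and Timp2 were the members called under every one of the 3 omissions.

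**Figure D3:**
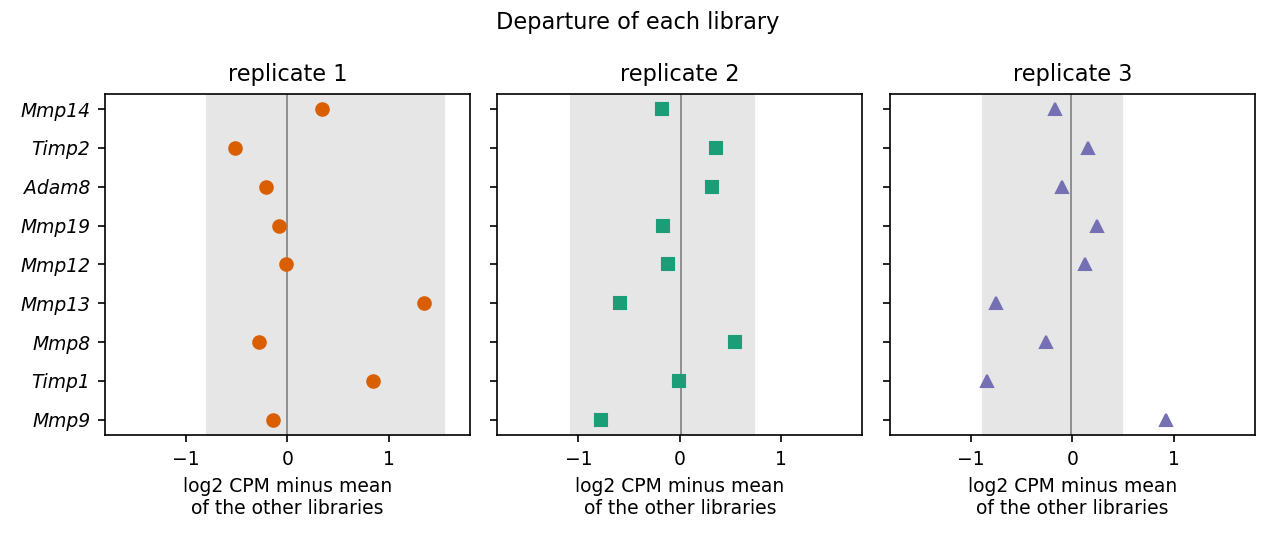
Departure of each library from the mean of the other 2 for the 9 members tested, as log2 CPM, in replicates 1, 2 and 3. The grey band holds the central 95% of all genes tested and the grey line is their median; Mmp13 and Timp1 lie furthest right in replicate 1, and Mmp9 in replicate 3 lies outside the band.

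The order of the libraries for Timp2 depended on the scale. Replicate 1 was lowest by CPM and, at 182, 229 and 189, also by TPM over nuclear-encoded protein-coding genes alone, but lay between the others by TPM as deposited. Timp2 has 2 annotated transcripts, Timp2-201 of 3709 bases with the full coding sequence and Timp2-202 of 718 bases, which has another first exon and an incomplete 3′ end. Timp2-201 held 68.2%, 88.8% and 96.6% of the gene's TPM in replicates 1, 2 and 3, and Timp2-202 the remaining 31.8%, 11.3% and 3.45%. By expected counts Timp2-202 held only 6.04%, 1.78% and 0.485%, or 439, 332 and 89 counts with posterior SDs of 37.0, 71.6 and 45.4. The short transcript thus held much of the gene's TPM in replicate 1 from few counts. The part of the transcript shares and of the library's makeup in the order of the libraries was not tested. The table made directly from the reads put Timp2-201 at 50.4%, 56.4% and 63.6%, lower in each library and again lowest in replicate 1.

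Mmp14 was close to a single-transcript gene. Mmp14-201 held 95.9%, 98.2% and 98.7% of its TPM (97.6% ± 1.51, SD, n = 3), and 96.0% by the table made directly from the reads. Mmp13 and Mmp8 have 1 annotated transcript each. Mmp19-201 held 75.8%, 75.5% and 74.8%, the steadiest division of the family, with Mmp19-203 holding the rest, although the table made directly from the reads gave Mmp19-201 64.8% ± 2.03 (SD, n = 3). For Timp1, Timp1-201 held 57.7%, 81.0% and 47.8%, a division resting on at most 68 counts a library.

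**Figure D4:**
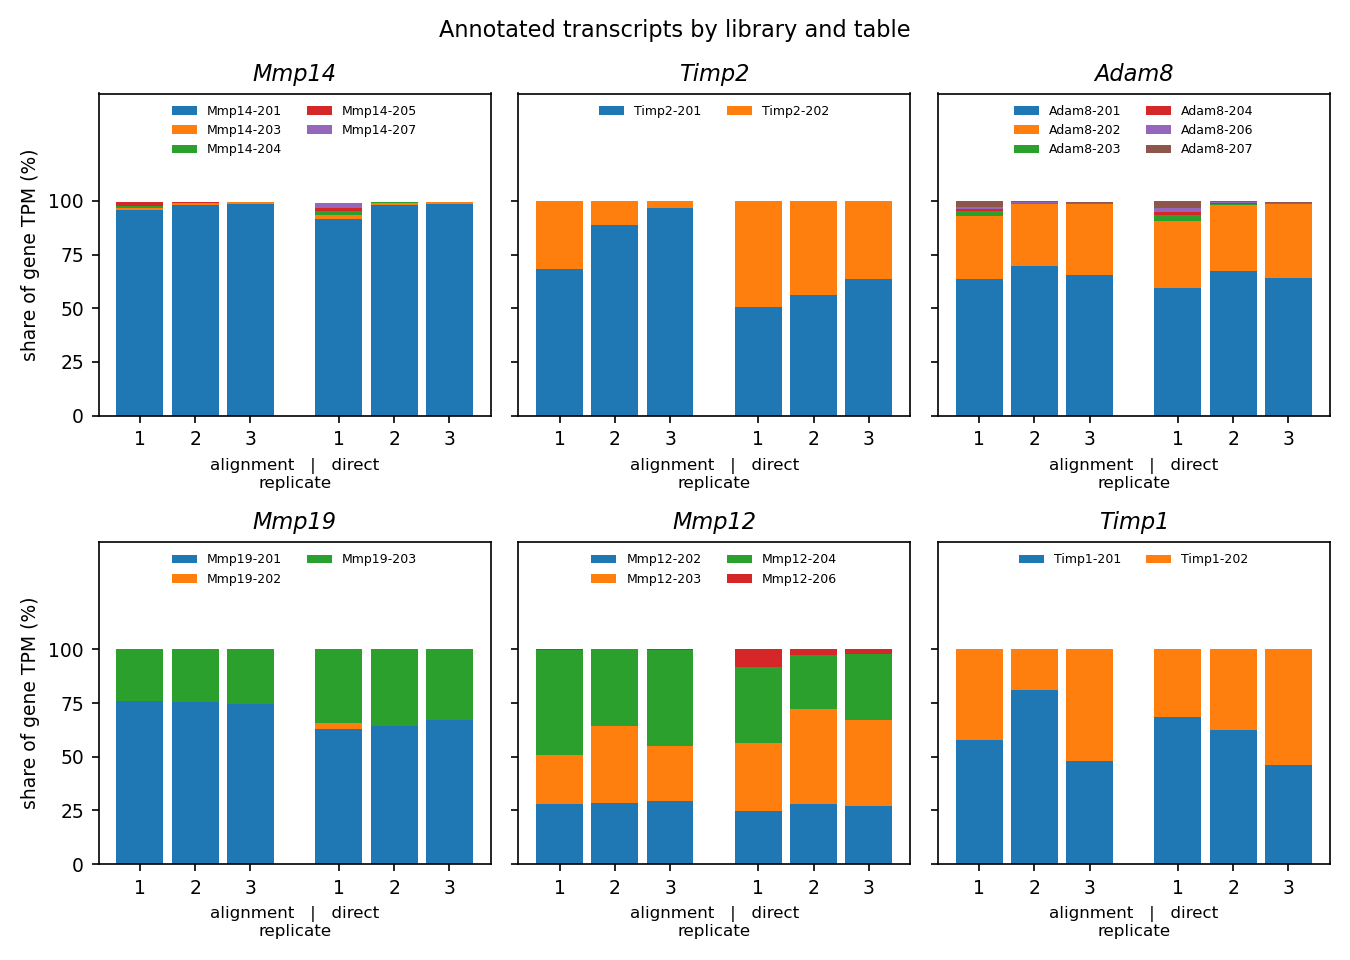
Share of each gene's TPM held by its annotated transcripts in replicates 1, 2 and 3, from the table based on an alignment (left bars) and the table made directly from the reads (right bars), for the 6 members with several transcripts and 40 or more counts a library; transcripts under 1% in every bar are not drawn. Mmp14 is nearly all Mmp14-201, Timp2-202 takes its largest share in replicate 1 in both tables, and Mmp12 is split over 3 transcripts in the first table and 4 in the second, with Mmp12-201 at 0 in both.

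Adam8 was divided mainly between 2 transcripts that share 22 of their 24 exons. Adam8-202 has 14 more bases at the start of its first exon and 3 more at the start of its second. Adam8-201 held 63.6%, 69.7% and 65.5% of the gene's TPM (66.3% ± 3.1, SD, n = 3) and Adam8-202 held 29.6%, 28.8% and 33.3%. The junction is shown 5′ to 3′ on the minus strand, from GENCODE M21 on mm10 (chr7:139991427-139992451), with 20 bases on each side and with the 3 extra bases of Adam8-202 in capitals.
Adam8-202: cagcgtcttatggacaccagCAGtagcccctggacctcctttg
Adam8-201: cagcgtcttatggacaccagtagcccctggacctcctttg
The annotated coding sequences were 2478 bases in Adam8-202 and 2475 bases in Adam8-201, so the reading frame is kept. The deposited shares do not say which of the 2 differences the reads supported. The posterior SD of the Adam8-201 count was 162, 254 and 250 counts on 3252, 7775 and 6486, and Adam8-201 was above Adam8-202 in every library. The table made directly from the reads also put Adam8-201 first, at 63.6% ± 3.99 (SD, n = 3).

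Mmp12 was the member whose main transcript was least certain. Of its 7 annotated transcripts, Mmp12-204, annotated as a target of nonsense-mediated decay, held 49.0%, 35.7% and 44.8% of TPM in replicates 1, 2 and 3 (43.2% ± 6.8, SD, n = 3). Mmp12-202 held 28.2%, 28.6% and 29.4%, and Mmp12-203 held 22.5%, 35.7% and 25.5%. Mmp12-201, the model with the longest coding sequence (1419 bases, against 1209 in Mmp12-203, 1017 in Mmp12-202 and 192 in Mmp12-204), was listed at 0 in all 3 libraries in both tables. In the table made directly from the reads Mmp12-203 led instead, at 38.5% ± 6.37, with Mmp12-204 at 30.5% ± 4.96 (SD, n = 3 each). Mmp12-204 and Mmp12-201 differ at the junction printed here (GENCODE M21 on mm10, chr9:7347519-7348604, plus strand), where capitals mark 58 bases that Mmp12-204 keeps at the start of its second exon.
Mmp12-204: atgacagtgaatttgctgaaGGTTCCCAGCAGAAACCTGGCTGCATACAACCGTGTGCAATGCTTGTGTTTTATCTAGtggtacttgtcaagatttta
Mmp12-201: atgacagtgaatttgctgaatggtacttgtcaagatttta
The 58 bases are not a multiple of 3, and the annotated coding sequence of Mmp12-204 ends at position 7348604, the last base of the printed stretch. The models differ elsewhere as well: the last exon is 2235 bases in Mmp12-201, 238 in Mmp12-203 and 662 in Mmp12-204, and Mmp12-203 starts 2977 bases upstream of Mmp12-201. The deposited shares therefore do not say which of these differences the reads supported, and the junction was not measured on its own.

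Transcripts annotated as retaining an intron held a small part of the expected counts of Adam8 and Mmp14, and the largest part in replicate 1. For Adam8 they held 5.43%, 1.03% and 0.702% of expected counts in replicates 1, 2 and 3 (274, 114 and 69.3 counts). For Mmp14 they held 1.21%, 0.149% and 0.0705% (128, 21.3 and 10.9 counts). Both genes were thus several-fold higher in replicate 1 than in either other library, a pattern that was common: over 9119 protein-coding genes with such a transcript the share was 4.39%, 2.09% and 1.99%, and of the 5912 with 100 or more counts in every library 83.9% were highest in replicate 1. The other 3 members with such a transcript did not share this pattern by expected counts: Mmp19 and Mmp9 had 0 counts in it, and Mmp12 had 0.691%, 0% and 0.699%. By estimated counts the table made directly from the reads gave 6.76%, 1.12% and 0.975% for Adam8 and 1.82%, 0.137% and 0.113% for Mmp14. By share of the gene's TPM that table gave 8.4%, 2.4% and 2.28% for Mmp12-206, 28.4%, 12.8% and 0% for Mmp9-202, and 2.6%, 0% and 0% for Mmp19-202, the Mmp9 shares resting on a gene with few counts. How much such RNA is listed for these 3 members thus depends on the table. Malat1 was also highest in replicate 1, and the part of nuclear RNA in these shares was not tested.

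**Figure D5:**
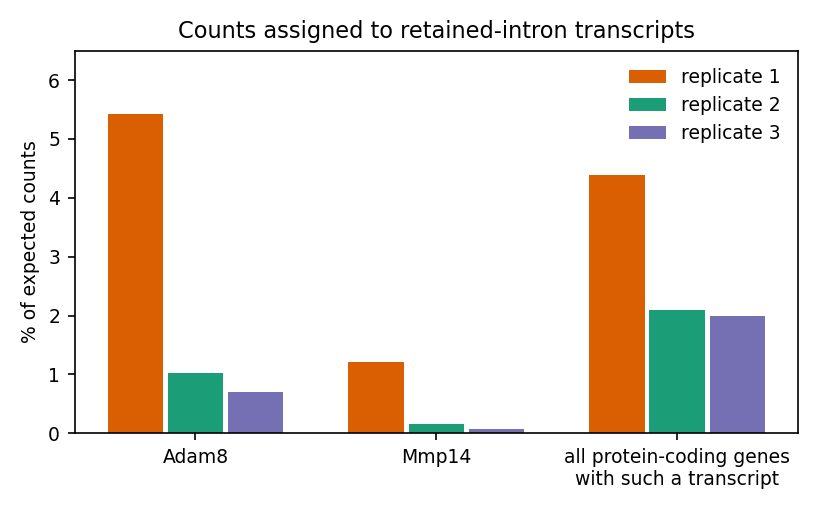
Percent of expected counts assigned to transcripts annotated as retaining an intron, for Adam8, Mmp14 and all 9119 protein-coding genes that have such a transcript, as bars for replicates 1, 2 and 3. Replicate 1 is the highest bar in each set, at 5.43%, 1.21% and 4.39%.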

How the data were processed

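Cytosolic, ribosomal RNA-depleted total RNA was sequenced in 3 libraries of a single treated group, with 1 µg of RNA and inserts of 250 to 400 bases per the labels. The authors deposited expected (estimated) counts per gene and transcript after alignment to the transcriptome (mm10, GENCODE M21, per the notes with the files) and a further table of estimated counts and TPM made directly from the reads. TPM was deposited by the authors, scaled over all listed entries, so abundant structural RNA lowers every other gene. The authors also deposited each transcript's percent of its gene's TPM and the posterior SD of counts, per the file headers. The sources used here do not give tool versions, filters or strand. Entries that name no gene held 0.435%, 0.134% and 0.0823% of counts and were left out of tests.

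Members were found by symbol through the GENCODE annotation. Detection meant 1 TPM in every library. Expected counts were rounded, filtered with filterByExpr in edgeR 4.0.16 (R 4.3.3) and tested per gene by chi-square against a single rate with TMM effective library sizes, called at an adjusted p of 0.05, since with 1 group there is no quasi-likelihood contrast. Departures used log2 CPM with a prior count of 2. The test was tried on simulated counts that held counting error only, with 200 genes changed. That trial does not cover the wider spread between the real libraries. DESeq2 1.42.0 size factors, no scaling, no filter, the direct table and omission of each library were the alternatives. All 10 members could be named, together with the other Mmp and TIMP genes, overlapping genes, and the 3 highest and the lowest gene of each other list. Members and lists were chosen with earlier results of these data known. Retained-intron shares were added after seeing the data.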

Additional observations from a re-analysis of the deposited data

How the results depend on the processing

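The count of 7 members at 1 TPM in every library was 4 at 5 TPM, 8 at 0.1 TPM, 8 with at least 10 counts, 5 in the table made directly from the reads, and 7 to 8 with a library left out. The share of all protein-coding genes was computed for the main setting only (41.4%), so the other counts have no background beside them. In the table made directly from the reads, nuclear-encoded protein-coding genes held 24.3%, 10.1% and 8.15% of TPM, so 1 TPM is not the same cut there. The 8 members that varied beyond counting error were 5 without replicate 1 and 5 to 6 with a library left out. The count was 8 under DESeq2 size factors, beside 8945 of 12515 genes called, and 8 under raw totals, beside 9098 of 12515. It was 8 with no filter, beside 11937 of 22148 genes, and 8 in the table made directly from the reads, beside 10414 of 13564. These counts are to be read against the calls over all genes. The inhibitor to protease ratio of 0.469 was 0.629 in the table made directly from the reads, 0.669 without Adam8 and 0.566 on expected counts, and between 0.439 and 0.501 with a library left out. The cause of these shifts was not tested beyond what each alternative leaves out. TPM levels of all 10 members rose by more than the spread between libraries when scaled over nuclear-encoded protein-coding genes. That scaling is a change of unit that raises every such gene. In the table made directly from the reads 8 levels moved by more than that spread. Their means there were 37.7 TPM for Mmp14, 35.4 for Timp2, 16.4 for Adam8, 3.2 for Mmp19, 2.4 for Mmp12, 1.14 for Mmp8, 0.0342 for Mmp9 and 0.257 for Timp3. Shares of family TPM moved for 3 members in each of the other table and the count scale. The leading transcript was the same in both tables for 8 members, with Mmp12 and Timp3 the exceptions. All 108 departures recomputed with other prior counts or scalings moved by less than the spread between libraries. Depth limits Mmp9, Timp1 and Timp3 most, and the levels given for 3 counts cover counting error only. No paired analysis was possible because the libraries form a single group.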
